A study of Rattus norvegicus with 18 samples.

Results

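The unstimulated cortical collecting duct of the rat was described from the 9 RNA-seq libraries of the Vehicle group, out of 18 libraries in the series. The Vehicle libraries were taken by their labels, not by any measured value. The choice to describe this group, and the choice of the 34 gene lists, were made with earlier results of these data known. They are 3 numbered samples, Vehicle 1, Vehicle 2 and Vehicle 3, each with 3 libraries. The ducts were dissected by hand from kidneys of pathogen-free male Sprague-Dawley rats, 3 h after an intraperitoneal injection of normal saline, so all of them carry the injection. The rats had normal chow and water and lived on a light-dark cycle. The labels give no genotype, no age and no clock time of collection. The other 9 libraries, from rats given lipopolysaccharide, were not used here. Polyadenylated RNA was copied by template switching, with a kit for very small inputs, and amplified by PCR before tagmentation.

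Levels are in TPM, a transcript's share of its library, which is corrected for transcript length, so levels of different genes can be set side by side. Each value for a sample is the mean of its 3 libraries, and each mean ± SD is over the 3 samples unless stated otherwise. The labels do not state that each numbered sample is its own animal, or whether the 3 libraries of a sample came from separate ducts or from the same RNA. The p-values below set differences between samples against the spread between libraries of a sample, which may be technical, and say nothing about rats in general. TPM keeps no read number, so depth is unknown and counting intervals cannot be given. In whole tissue a lower level can mean fewer cells of a type or less RNA per cell, and these cannot be told apart.

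The cortical collecting duct is lined by principal cells and intercalated cells. Principal cells take up sodium through the epithelial sodium channel under aldosterone, secrete potassium through ROMK, and take up water when vasopressin moves aquaporin-2 to the apical membrane. Type A intercalated cells secrete acid through an apical proton pump with a basolateral chloride-bicarbonate exchanger, AE1, and type B cells secrete bicarbonate through apical pendrin. The connecting tubule, which joins the duct upstream, shares many principal cell genes and also takes up calcium.

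The 6 marker genes of the duct were all abundant in all 9 libraries. Aqp2 (ENSRNOG00000054378), whose product is the apical water channel under vasopressin control, had 6318 TPM in Vehicle 1, 5326 in Vehicle 2 and 6239 in Vehicle 3, a mean of 5961 ± 551 TPM (SD, n = 3). It ranked 4 among nuclear-encoded genes. Aqp3 (ENSRNOG00000009797), the basolateral water channel gene, stood at 2728, 2152 and 3115 TPM in the same order. Kcnj1 (ENSRNOG00000059005), which encodes ROMK, had 1234, 1213 and 1019 TPM. Scnn1g (ENSRNOG00000017842), the gamma subunit gene of the epithelial sodium channel, had 842, 653 and 957 TPM. Fxyd4 (ENSRNOG00000014578), which encodes a regulator of the sodium pump, had 416, 905 and 618 TPM, and Avpr2 (ENSRNOG00000059862), the vasopressin V2 receptor gene, had 639, 705 and 731 TPM. Of these 6, Fxyd4 varied most between samples, with a lowest library of 272 TPM in Vehicle 1 and a highest of 932 TPM in Vehicle 2. Its sample groups did not overlap. Those of Scnn1g did not overlap either, at 570 to 704 TPM in Vehicle 2, 811 to 865 in Vehicle 1 and 888 to 1082 in Vehicle 3. The share of all genes with no overlap between the samples was not counted. The plot of duct genes by library shows how closely most of them sat.

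**Figure D1:**
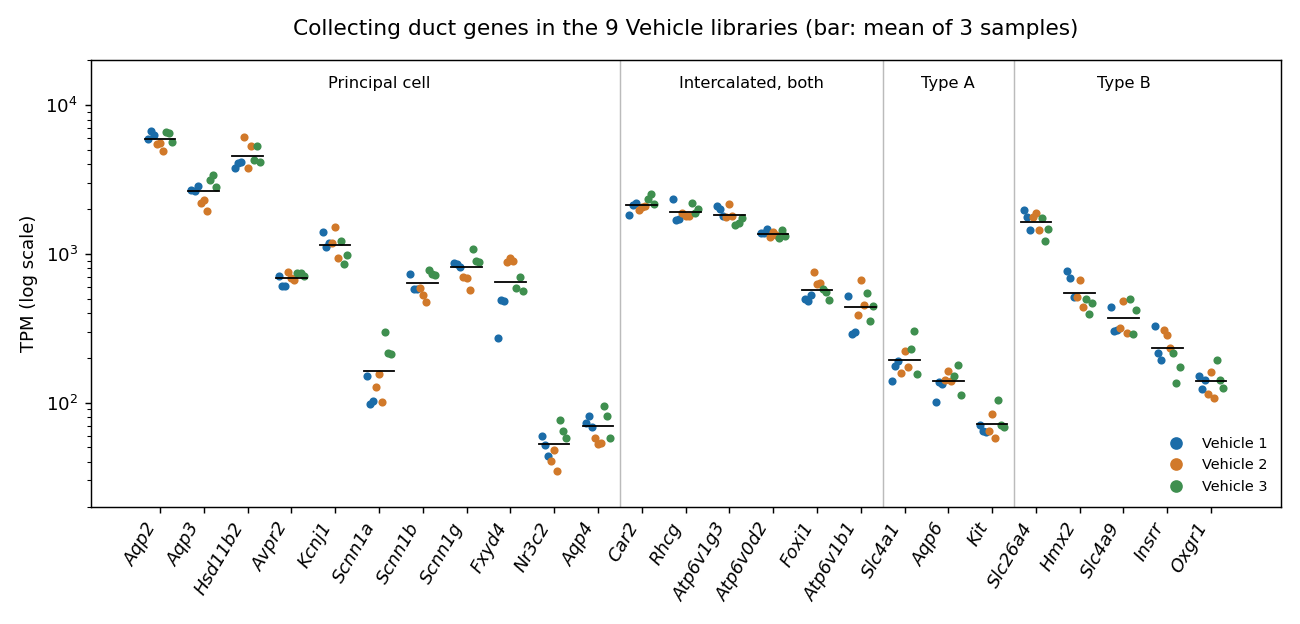
TPM (log scale) of genes of principal and intercalated cells in each of the 9 Vehicle libraries, coloured by sample, with a bar at the mean of the 3 samples. Aqp2 has the highest mean at 5961 TPM and Nr3c2 the lowest at 53.1 TPM. The 3 samples are separate in Fxyd4 and in Scnn1g, while in Scnn1a only Vehicle 3 stands apart.

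As a whole, a Vehicle sample listed 12301 ± 308 genes at 1 TPM or more, 7625 ± 251 at 10 TPM or more and 1722 ± 45.2 at 100 TPM or more (SD, n = 3). Protein genes encoded in the mitochondrial genome took 8.77% ± 0.606 of TPM. Nuclear genes of the respiratory chain and ATP synthase took 7.91% ± 0.628, and the V-type proton ATPase genes alone 1.81% ± 0.204. Cytosolic ribosomal protein genes made up 2.04% ± 0.0236. The 100 most abundant genes held 32.2% ± 1.11 of TPM. Libraries of a sample correlated with a median Pearson r of 0.962 across genes, and libraries of different samples with 0.953; genes are not independent replicates.

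Genes of ion, water and acid transport stood among the housekeeping genes at the top. Of the 25 most abundant nuclear-encoded rows, 2 carry clone-style names and are left unnamed. Ubb (ubiquitin), Actb and Myl6 (cytoskeleton), Itm2b, Ppia, Fth1 (ferritin), Ctsd (cathepsin D), Pebp1, Aldoa and Ldha (glycolysis), Atp5f1b, Cox8a, Cox6c and Slc25a5 (mitochondria), Tmem213, LOC108351137 and LOC108348144 shared that range with genes of known duct function. These were Aqp2, Hsd11b2 at 4555 ± 532 TPM, Defb1 at 4188 ± 604 TPM, Atp6v0c at 3970 ± 1150 TPM and Fxyd2 at 3863 ± 980 TPM (SD, n = 3). Hsd11b2 inactivates glucocorticoids and so keeps the mineralocorticoid receptor open to aldosterone, Defb1 encodes a beta-defensin, Atp6v0c a membrane subunit of the proton pump, and Fxyd2 the gamma subunit of the sodium pump. Values of near-identical copies, such as the ubiquitin, globin, defensin and LOC genes, are uncertain because RSEM divides shared reads by estimate.

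**Figure D2:**
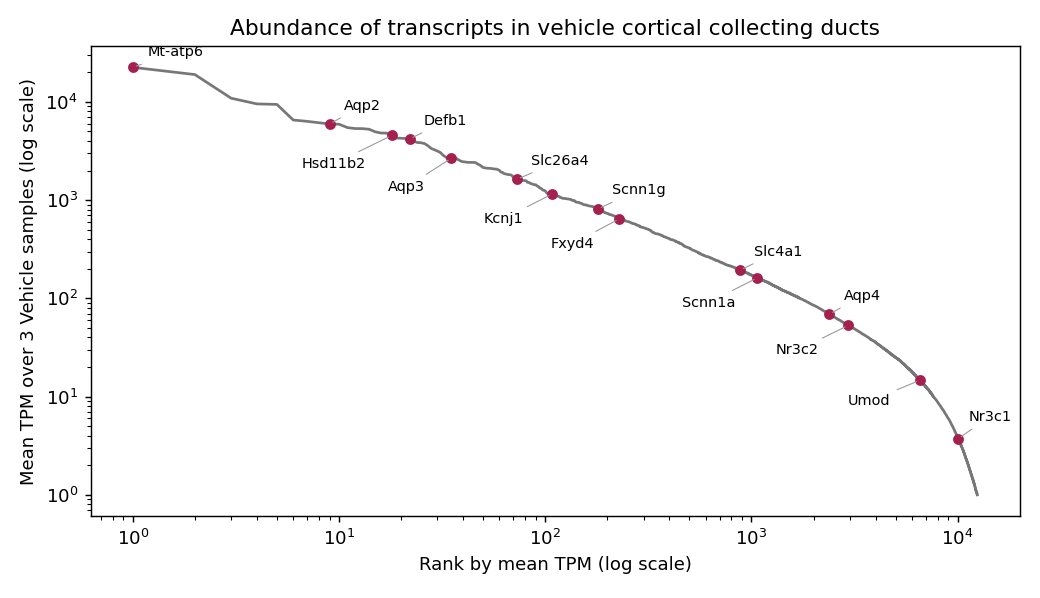
Mean TPM over the 3 Vehicle samples (log scale) against rank (log scale) for all genes averaging 1 TPM or more, with some genes marked. Aqp2, at rank 9 of all genes, lies above Hsd11b2 at 18 and Aqp3 at 35, while Nr3c1 lies near the end of the curve at 3.74 TPM.

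Among genes of the epithelial sodium channel, those of the beta and gamma subunits stood above that of alpha. Scnn1b stood at 637 ± 108 TPM and Scnn1a (ENSRNOG00000019368) at 162 ± 69.1 TPM (SD, n = 3), so that Scnn1g was 5.41 times and Scnn1b 4.21 ± 1.15 times the level of Scnn1a, in all 9 libraries. Scnn1g exceeded Scnn1b by 1.28 ± 0.0516 times, also in all 9. These and the other pairs of genes set side by side were chosen after their values were seen. The channel-activating protease genes Prss8 (142 ± 15.4 TPM), St14 (129 ± 29.3 TPM) and Furin (31.9 ± 1.48 TPM) were all present, as were Sgk1, the aldosterone-induced kinase gene, at 333 ± 131 TPM and the ubiquitin ligase genes Nedd4 at 114 ± 34.4 TPM and Nedd4l at 97.8 ± 8.33 TPM. Nr3c2, the mineralocorticoid receptor gene, stood at 53.1 ± 12.8 TPM and Nr3c1, the glucocorticoid receptor gene, at 3.74 ± 0.317 TPM, a ratio of 14.1 ± 2.4. Slc4a8, which encodes a sodium-driven bicarbonate exchanger, was at 2.67 ± 1.24 TPM.

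Water transport rested on a few channels. After Aqp2 and Aqp3 came Aqp6, the intercalated cell channel gene, at 139 ± 13.8 TPM and Aqp4, another basolateral channel gene, at 69.2 ± 12.8 TPM. Aqp2 exceeded Aqp3 by 2.26 ± 0.24 times, and the order Aqp2, Aqp3, Aqp6, Aqp4 held in every library. Aqp1, the water channel gene of the proximal tubule and thin limb, was at 0.0933, 0.273 and 1.61 TPM over samples, and Aqp8 at 0.0156 TPM. Avpr1a, the V1a receptor gene, stood at 91.7 ± 25.9 TPM against 692 ± 47.2 TPM for Avpr2. Of 34 genes of water transport and vasopressin signalling, 26 passed the filter of a mean of 1 TPM and 10 reached 100 TPM. Among them were Prkar1a, a regulatory subunit gene of protein kinase A, at 533 ± 55.3 TPM and Vamp8, a vesicle fusion gene, at 613 ± 45.7 TPM. Adcy6, which encodes an adenylyl cyclase of the vasopressin pathway, stood at 7.49 ± 0.859 TPM and Adcy3 at 0.779 ± 0.0901 TPM.

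For potassium, Kcnj1 at 1155 ± 119 TPM was followed by Kcne1 at 625 ± 107, Kcnk1 at 229 ± 27.7 and Kcnq1 at 162 ± 16.2 TPM. Kcnma1, the large-conductance BK channel gene, stood at 12.7 ± 1.91 TPM. Atp12a and Atp4a, the alpha subunit genes of the colonic and gastric proton-potassium pumps, stood at 1.76 ± 0.757 and 0.514 ± 0.0943 TPM.

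Sample means of intercalated cell genes varied little. The 13 markers common to both types summed to 13371 ± 78.7 TPM (SD, n = 3), and to between 12601 and 14530 TPM in single libraries. The median SD of a member was 0.12 on the log2 scale against 0.17 over all tested genes, which are of all levels. Of the 13, 12 reached 100 TPM. All genes at that level had a median coefficient of variation of 8.05%, against 13.4% over all tested genes, so a small spread is not particular to these markers. Car2 (carbonic anhydrase 2) stood at 2146 ± 173 TPM, Rhbg and Rhcg (ammonia channels) at 2071 ± 44 and 1927 ± 95 TPM, and Foxi1 (ENSRNOG00000006293), the transcription factor gene that specifies these cells, at 574 ± 90.5 TPM. Rhbg exceeded Rhcg in 3 of 3 samples, by 1.08 ± 0.0576 times, and in 6 of 9 libraries, so single libraries did not keep the order. Proton pump subunit forms known from intercalated cells stood above their widespread counterparts. Atp6v1b1 exceeded Atp6v1b2 by 2.92 times, Atp6v1g3 exceeded Atp6v1g1 by 4.67 times, Atp6v1c2 exceeded Atp6v1c1 by 3.09 times and Atp6v0a4 exceeded Atp6v0a1 by 116 times.

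Both intercalated types were represented. Of the type B list, Slc26a4 (ENSRNOG00000058692), which encodes pendrin, stood at 1634 ± 140 TPM, Hmx2 at 550 ± 102, Slc4a9 (the exchanger AE4) at 372 ± 26.3, Insrr (a receptor that senses alkali) at 232 ± 51.7 and Oxgr1 (the 2-oxoglutarate receptor) at 140 ± 13 TPM. Of the type A list, Slc4a1 (ENSRNOG00000020951), which encodes AE1, stood at 194 ± 31.7 TPM, Adgrf5 at 152 ± 12.3 and Kit at 72 ± 8 TPM. Slc26a4 exceeded Slc4a1 by 8.62 times in the mean over samples and in all 9 libraries. Levels of different genes do not give numbers of cells.

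Energy genes of glycolysis and of the citric acid cycle were both high. Glycolysis summed to 15318 ± 697 TPM over 16 genes, with Aldoa at 3764 ± 181, Ldha at 3053 ± 37.9 and Eno1 at 2101 ± 302 TPM. Hk1, the hexokinase 1 gene, stood at 67.3 ± 22 TPM and Hk2 at 0.153 TPM. The 18 citric acid cycle genes summed to 9991 ± 398 TPM and 0 of them differed between samples by limma, against 6.77% of all tested genes (7 had an unadjusted p under 0.05, where 25% of all genes did, and 2 were called without library 1 of Vehicle 1), with Sdhc at 1258 ± 94.5 TPM and Idh2 at 1098 ± 59 TPM. Fatty acid oxidation genes summed to 3192 ± 135 TPM. Gluconeogenesis, a proximal tubule pathway, was low: Pck1 stood at 4.28 ± 2.94 and G6pc at 0.663 ± 0.386 TPM.

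Receptors, regulators and surface genes filled in the profile. P2ry14, a receptor for UDP sugars, stood at 190 ± 16.6 TPM, Ednrb, the endothelin B receptor gene, at 80.4 ± 31.9, Gcgr, the glucagon receptor gene, at 57.8 ± 10.4 and Casr, the calcium-sensing receptor gene, at 46.9 ± 13.4 TPM. Agtr1a, the angiotensin receptor gene, stood at 3.42 ± 2.53 TPM, Edn1 at 1.57 ± 0.497 TPM, Nos1 at 0.0111 TPM and Ednra at 0.0733 TPM. In the prostanoid list Ptges (prostaglandin E synthase) stood at 645 ± 57.2 TPM, Ptgs1 (cyclooxygenase 1) at 125 ± 27.3 TPM and Ptgs2 (cyclooxygenase 2) at 0.14 ± 0.106 TPM. The receptor genes Ptger1 and Ptger3 stood at 45.2 ± 10.8 and 37.9 ± 6.56 TPM, with Ptger2 at 0.102 TPM. Abundant transcription factor genes included Foxi1, Hmx2, Elf3 (282 ± 62.7 TPM), Gata3 (159 ± 20.1 TPM) and Pax8 (149 ± 18.5 TPM). Among junction genes Epcam stood at 1330 ± 134 TPM and Cldn8, a claudin of the distal nephron, at 991 ± 118 TPM, 4.29 times Cldn4. Tight junction genes of other segments were lower, with Cldn16 at 25.4 ± 4.92 and Cldn2 at 0.373 TPM. Keratin genes followed as Krt7 at 1165 ± 147, Krt18 at 688 ± 75.4 and Krt8 at 476 ± 45.4 TPM, with Krt20 at 0.0733 and Krt5 at 0.0389 TPM. Toll-like receptor genes Tlr2, Tlr4 and Tlr5 stood at 1.61 ± 0.304, 0.453 ± 0.144 and 0.0689 ± 0.0769 TPM. Proliferation genes summed to 354 ± 40.8 TPM, of which Pcna made 110 ± 7.84 TPM and Mki67 2.62 ± 0.59 TPM.

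Markers of other cells ranged from near 0 to well above 1000 TPM in sum. Thick ascending limb markers summed to 178, 156 and 186 TPM over samples, with 4 of 10 at 10 TPM or more and 4 under 1 TPM. Of these Umod stood at 14.7 ± 6.86 and Slc12a1 at 0.369 ± 0.0685 TPM. Slc12a3, the sodium-chloride cotransporter gene that defines the distal convoluted tubule, was at 0.0822 ± 0.0102 TPM, and Pvalb was listed at 0 in all 9 libraries. The 6 podocyte markers summed to 45.2, 52.5 and 34.2 TPM over samples, but 5 of them lay under 1 TPM and 1 member made most of the sum. Nphs1 was at 0.00333 TPM and Wt1 was listed at 0. Proximal tubule markers summed to 36.2 TPM in Vehicle 1, 116 in Vehicle 2 and 171 in Vehicle 3, and 9 of 18 lay under 1 TPM, Lrp2 and Cubn among them. Without library 3 of Vehicle 3 that sample's sum was 74.2 TPM, below Vehicle 2. Endothelial markers summed to 105, 22.4 and 81.5 TPM and monocyte and macrophage markers to 458, 266 and 359 TPM, the latter led by Cd74 at 172 ± 29.6 and Lyz2 at 114 ± 48 TPM. Lymphocyte markers summed to 8.34 ± 2.57 and urothelial markers to 3.63 ± 1.52 TPM. Thin limb and inner medullary markers summed to 231, 255 and 306 TPM, and red cell markers to 1081, 166 and 140 TPM. Distal convoluted and connecting tubule markers summed to 5981, 271 and 470 TPM.

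**Figure D3:**
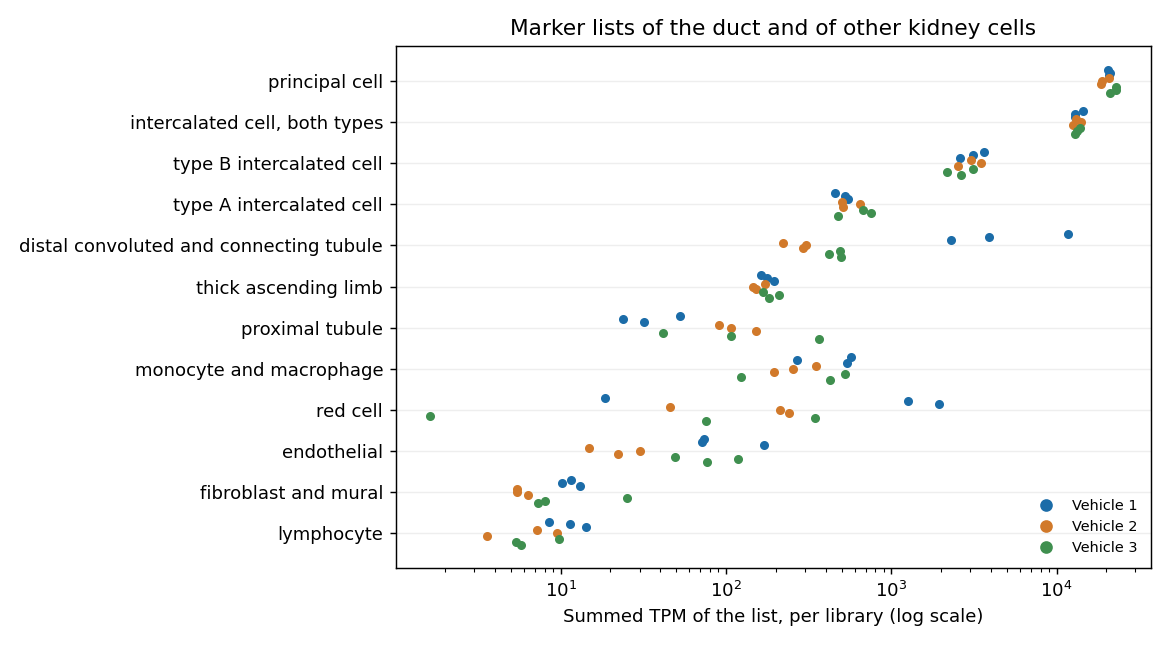
Summed TPM (log scale) of 12 marker lists in each of the 9 Vehicle libraries, coloured by sample. Principal and intercalated lists lie close together across libraries, the distal convoluted and connecting tubule list lies between 2290 and 11756 TPM in Vehicle 1 and between 220 and 497 TPM in the others, and the red cell list runs from 1.62 to 1955 TPM.

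Most genes sat close together between Vehicle samples. Among 1718 genes at 100 TPM or more, the median coefficient of variation between samples was 8.05%, with 1065 under 10% and 19 over 50%. The median SD on the log2 scale was 0.173 between samples, each a mean of 3 libraries, and 0.203 between single libraries of a sample, which is 0.117 for a mean of 3. By the means of their libraries, the 10 steadiest genes at 50 TPM or more were LOC108348144, Tspan31, RGD1308430, Fibp, Cops7a, Dapk3, Pias1, Rpl13, Aamp and Rpl23, and Tspan31 stood at 126 TPM in each of the 3 samples. LOC108348144 ran from 1848 to 3901 TPM between libraries of Vehicle 3.

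Against the spread between libraries, 844 of 12458 tested genes differed between the 3 samples, 6.77% of those tested (limma F test, Benjamini-Hochberg adjusted p under 0.05). Each sample was then set against the mean of the other pair. Vehicle 1 was higher in 1.28% of genes (160) and lower in 1.65% (205). Vehicle 2 was higher in 1.24% (155) and lower in 2.31% (288), and Vehicle 3 was higher in 3.07% (382) and lower in 1.47% (183). With libraries scaled by median ratio the splits became 224 higher and 221 lower for Vehicle 1, 273 and 230 for Vehicle 2, and 253 and 366 for Vehicle 3. That scaling moved the median difference of all tested genes from -0.09 to 0.01 in Vehicle 2 and from 0.12 to -0.01 in Vehicle 3 (log2). Without single libraries the 844 became 302 (library 1 of Vehicle 2), 341 (library 3 of Vehicle 2), 353 and 363 (libraries 3 and 2 of Vehicle 1), 441, 505 and 517 (libraries 2, 3 and 1 of Vehicle 3). In the text that follows, a difference that held throughout kept its call under every other setting in which the gene was tested and with each of the 9 libraries left out. Of 151 differences followed in this way, 70 held throughout, and 0 changed direction.

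**Figure D4:**
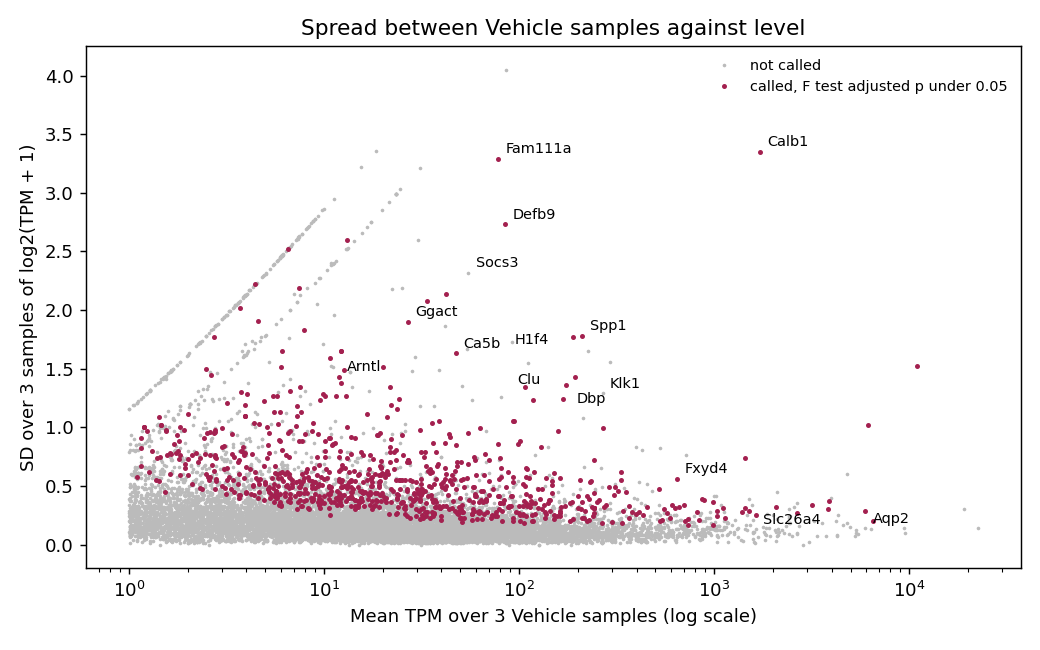
SD over the 3 samples of log2(TPM + 1) against mean TPM (log scale) for the 12458 tested genes, with the 844 that differed between samples in red and some genes named. Aqp2 and Slc26a4 lie near the bottom, and Calb1, Fam111a and Defb9 lie far above genes of like level.

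Some principal cell genes differed between samples. Intercalated cell markers did not pass the test, but in lists of 13, 5 and 6 members 0 calls lie near the background of 6.77%. Whether the cell types differ in this was not tested. Of 20 principal cell markers 5 differed, a share to be read beside the background of 6.77%: Aqp3, Tspan1, Scnn1g, Fxyd4 and Scnn1a. Tspan1, a tetraspanin gene, stood at 743, 682 and 784 TPM in the libraries of Vehicle 2 and between 1669 and 2003 TPM in the other 6. It was lower in Vehicle 2 by -1.28 (log2, SE 0.0754, limma adjusted p = 8.67e-05), which held throughout. Scnn1a stood at 117, 128 and 242 TPM, and was higher in Vehicle 3 by 0.98 (SE 0.188, limma adjusted p = 0.0267). That call was kept with only 2 of 9 libraries left out in turn, with an adjusted p of up to 0.0879. Fxyd4 was lower in Vehicle 1 by -0.89 (SE 0.179, limma adjusted p = 0.0314) and higher in Vehicle 2 by 0.86 (adjusted p = 0.0355), and each call was kept with 3 of 9 libraries left out in turn, with adjusted p up to 0.114. Scnn1g was lower in Vehicle 2 by -0.46 (SE 0.0925, limma adjusted p = 0.0314) and Aqp3 by -0.44 (SE 0.0824, adjusted p = 0.0253), with adjusted p up to 0.11 and 0.103 over the alternatives. The count of 5 principal cell genes became 1 to 6 with single libraries left out, with 1 left without library 1 or 3 of Vehicle 2 or library 1 of Vehicle 3, 2 without library 2 or 3 of Vehicle 1 or library 2 of Vehicle 3, and 3 without library 2 of Vehicle 2 or library 3 of Vehicle 3. It was 1 without a filter on low values and 2 without a variance trend. The levels of Aqp2, Hsd11b2, Kcnj1 and Avpr2 did not pass the test, and 0 of 13 intercalated cell markers, 0 of 5 type A and 0 of 6 type B markers did (1 of the 13 was called under median-ratio scaling, and 1 without library 1 of Vehicle 1). At an unadjusted p under 0.05 the limma F test had 2 of the 13, 0 of the 5 and 1 of the 6, against 25% of all tested genes.

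Of 23 sodium reabsorption genes 7 differed, against 6.77% of all tested genes, and 2 without a filter on low values. The 7 became 3 without library 1 or 3 of Vehicle 2 or library 1 of Vehicle 3, and 4 without library 2 of any sample or library 3 of Vehicle 3. Usp2, a deubiquitinase gene also known as a clock output, stood at 72.2, 44 and 124 TPM, and Nedd4 at 88.4, 100 and 153 TPM. Both were higher in Vehicle 3, by 1.13 (SE 0.101, limma adjusted p = 0.000704) and 0.69 (SE 0.0895, adjusted p = 0.00505), and both held throughout. Among other genes of the lists, differences held throughout in Ehf, an epithelial transcription factor gene at 59.2, 40.8 and 111 TPM, P2ry1, a purinergic receptor gene at 4.38, 3.03 and 14.3 TPM, Ldhb at 1553, 1642 and 1109 TPM and Muc20 at 974, 1235 and 752 TPM. Ehf and P2ry1 were highest in Vehicle 3, by 1.17 (SE 0.13) and 1.71 (SE 0.142) on the log2 scale. Muc20 was higher in Vehicle 2 by 0.53 (SE 0.0691), and Ldhb and Muc20 were lower in Vehicle 3.

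The genes with the widest spread fell in a few groups. By SD over samples among genes of at least 50 TPM, leaving aside rows with clone-style names, the 10 widest were Calb1, Fam111a, Defb9, Socs3, Spp1, H1f4, Hba-a2, LOC100134871, Hba-a1 and Atf3. Socs3, Atf3 and the globin genes also varied widely between libraries of 1 sample and did not pass the test. Each sample had genes of its own that stood apart, and these are given in turn.

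Vehicle 1 carried connecting tubule genes. Calb1 (ENSRNOG00000007456), which encodes the calcium-binding protein calbindin-D28k, stood at 9694, 3303 and 1833 TPM in libraries 1, 2 and 3 of Vehicle 1. In Vehicle 2 it stood at 38.3, 107 and 48.7 TPM, and in Vehicle 3 at 136, 138 and 113 TPM. No library of Vehicle 1 overlapped with another sample. The difference was 5.47 (log2, SE 0.487, limma adjusted p = 0.000704) and held throughout. It was 4.81 without library 1 of Vehicle 1, which holds the most. Trpv5, the epithelial calcium channel gene, stood at 21, 0.277 and 1.14 TPM over samples, Kl, which encodes klotho, at 30.2, 2.91 and 3.75 TPM, and Slc8a1, the sodium-calcium exchanger gene, at 29.5, 3.33 and 5.33 TPM. These 3 were higher in Vehicle 1 by 3.19, 2.47 and 2.21 (limma adjusted p = 0.0167, 0.0289 and 0.032), but the calls were kept with 8, 2 and 3 of 9 libraries left out in turn, with adjusted p up to 0.0583, 0.0809 and 0.0895. Tmem52b stood at 341, 65 and 97.1 TPM and was higher in Vehicle 1 by 2.01 (SE 0.308, limma adjusted p = 0.0111), which held throughout. Klk1, the tissue kallikrein gene, stood at 1290 TPM in library 1 of Vehicle 1 and between 88.3 and 213 TPM in the other 8, and did not pass the test.

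Of 12 tested distal convoluted and connecting tubule markers 8 differed between samples (F test). The share over all tested genes was 6.77%. In the sample contrasts 6 were higher in Vehicle 1, against 1.28% of all genes, and 4 lower in Vehicle 2, against 2.31%, with a median of 1.73 for Vehicle 1 against -0.04 over all tested genes (log2). Without library 1 of Vehicle 1 these were 9, 6 and 8 with a median of 1.23. The 8 became 3 without library 1 or library 3 of Vehicle 2, 4 without library 2 of Vehicle 1 or library 3 of Vehicle 3, and 5 without library 1 of Vehicle 3, without a filter on low values or with the replicate block, the library number as a term. It was 4 with a pseudocount of 5 TPM. The 6 higher in Vehicle 1 became 2 without library 1 and 3 without library 3 of Vehicle 2, and 2 with a pseudocount of 5 TPM. The 4 lower in Vehicle 2 became 2 without its library 1. Slc12a3 and Pvalb, which define the distal convoluted tubule, were at or near 0 in every sample. S100g, the other calbindin gene, was lower in Vehicle 2 by -1.59 (SE 0.23, limma adjusted p = 0.00831), at 4.08 TPM against 13.5 and 14.7 TPM.

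Outside that list, Ca5b (ENSRNOG00000029330), a mitochondrial carbonic anhydrase gene, stood at 102, 116 and 115 TPM in Vehicle 1, at 11.5 to 12.6 TPM in Vehicle 2 and at 18.7 to 21.1 TPM in Vehicle 3. It differed by 2.75 (SE 0.08, limma adjusted p = 2.01e-06) and held throughout, and its 3 libraries of Vehicle 1 were level where those of Calb1 were not. Defb9, a beta-defensin gene, stood at 208, 3.81 and 42.5 TPM over samples (the rise in Vehicle 1 was lost with a pseudocount of 0.1 TPM, adjusted p = 0.0639), and LOC100911668 and Ifi27, an interferon-inducible gene, were the other genes named as highest in Vehicle 1. Lower in Vehicle 1 than the mean of the other pair were H1f4, which encodes a linker histone, Aldh1a7, Atg10, Hgfac and Nqo2. Fam111a, Spp1 and LOC100360791 are called too, but their libraries of Vehicle 1 overlap with those of Vehicle 2 or, for LOC100360791, of Vehicle 3. H1f4 stood at 20.1 to 45 TPM in Vehicle 1, 361 to 417 TPM in Vehicle 2 and 118 to 189 TPM in Vehicle 3.

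Vehicle 3 stood apart in Fam111a (ENSRNOG00000012067), a gene known for restricting virus replication. It stood at 198, 280 and 204 TPM in Vehicle 3 and between 2.44 and 4.63 TPM in the other 6 libraries, a difference of 5.69 (SE 0.17, limma adjusted p = 2.01e-06). Spp1 (ENSRNOG00000043451), which encodes osteopontin, stood at 546, 517 and 472 TPM in Vehicle 3 and between 42.4 and 83.5 TPM elsewhere, a difference of 3.11 (SE 0.205, limma adjusted p = 0.000141). Clu (ENSRNOG00000016460), the clusterin gene, stood at 349, 185 and 49.1 TPM over samples and was lower in Vehicle 3 by -2.36 (SE 0.175, limma adjusted p = 0.000277). All of these held throughout. Ggact stood at 35.1, 42.6 and 3.1 TPM and Stk11, the LKB1 kinase gene, at 18.5, 9.4 and 2.43 TPM, and both were lower in Vehicle 3. Also named were Pdia5, Defb29, Arl4d and Dusp2 among the rises and Hilpda and LOC100366030 among the falls. All but Hilpda held throughout; its fall (limma adjusted p = 0.0464) was kept under 2 of 7 other settings and with 1 of 9 libraries left out in turn, with adjusted p up to 0.133. Arl4d stood at 95.6, 38.9 and 219 TPM.

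Vehicle 2 stood apart in LOC100360791, at 73 to 140 TPM against 5.18 to 10.8 TPM in the other 6 libraries, and in Hgfac, which encodes an activator of hepatocyte growth factor, at 44.1 TPM against 4.67 and 11.1 TPM. Higher too were H1f4, Ggact, Popdc3 and Ccer2, the last kept with 4 of 9 libraries left out in turn (adjusted p up to 0.0751). Lower in Vehicle 2 were Gpm6a, a membrane glycoprotein gene at 15.8, 1.57 and 19.2 TPM (difference -2.85, SE 0.144, limma adjusted p = 3.15e-05), Ifi27 at 56.7, 3.14 and 41.5 TPM, Ifitm3, Rgcc, Defb9 and Calb1. The fall of Rgcc (limma adjusted p = 0.0401) was kept under 4 of 8 other settings and with 2 of 9 libraries left out in turn, with adjusted p up to 0.153. Fam111a is also called here, but its libraries overlap between Vehicle 1 and Vehicle 2. Endothelial markers were lower there too: 5 of 9 tested were lower in Vehicle 2, against 2.31% of all genes, and the list summed to 14.8 to 30.1 TPM in its libraries against 49 to 170 TPM in the other 6. Of those 5, the count became 0 without library 1 of Vehicle 2, 1 without its library 3, 2 without library 2 of Vehicle 1 or of Vehicle 2 or library 2 or 3 of Vehicle 3, and 3 without library 3 of Vehicle 1. It was 2 with a pseudocount of 5 TPM, 7 with 0.1 TPM, and 2 of 11 without a filter on low values. Whether endothelial RNA has a part in the genes lower in Vehicle 2 was not tested.

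Many clock genes differed between samples, with Vehicle 1 between Vehicle 2 and Vehicle 3 in several. These genes form a loop in which Arntl and its partners drive the Per, Cry and Nr1d genes, whose products in turn hold Arntl down, and Dbp and Tef carry the rhythm to other genes. The list of 20 was drawn up after the data were seen, so its counts are a description. Dbp (ENSRNOG00000021027) stood at 48.1, 44.3 and 51 TPM in Vehicle 2, 123, 184 and 188 TPM in Vehicle 1 and 331, 320 and 276 TPM in Vehicle 3. Arntl (ENSRNOG00000014448) went the other way, at 24.5, 24.9 and 20.9 TPM in Vehicle 2, 11, 9.93 and 9.72 TPM in Vehicle 1 and 3.07, 2.33 and 1.78 TPM in Vehicle 3. In both genes the samples did not overlap.

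Dbp was lower in Vehicle 2 by -2.20 (SE 0.139, limma adjusted p = 0.000107) and higher in Vehicle 3 by 1.79 (SE 0.139, adjusted p = 0.000315). Arntl was higher in Vehicle 2 by 1.99 (SE 0.136, limma adjusted p = 0.000166) and lower in Vehicle 3 by -2.30 (adjusted p = 8.67e-05). All 4 held throughout. Ciart (ENSRNOG00000042717), a repressor gene of the loop, stood at 0.5 TPM in Vehicle 2, 5.56 in Vehicle 1 and 17.6 in Vehicle 3. Per1 stood at 1.08, 2.56 and 5.63 TPM, Per2 at 2.29, 5.44 and 14.1 TPM, and Nr1d1 at 35.4, 86.5 and 112 TPM in that order. Npas2, a partner of Arntl, stood at 2.88, 1.06 and 0.383 TPM. Clock itself stood at 4.09, 4.33 and 4.38 TPM and did not pass the test.

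Of 18 clock genes tested 15 differed between samples, against 6.77% of all genes. The 15 became 13 to 16 with single libraries left out, but 3 with Vehicle 2 left out and 7 with Vehicle 3 left out. Vehicle 2 was lower in 11 and higher in 3, against 2.31% and 1.24% of all tested genes. Vehicle 3 was higher in 10 and lower in 3, against 3.07% and 1.47%. The 10 became 8 to 11 with single libraries left out, and the 3 lower in Vehicle 3 stayed 3. The 11 became 7 without library 1 or 3 of Vehicle 2, and the 3 higher in Vehicle 2 became 2 with any single library but library 1 of Vehicle 1 left out. Every library of Vehicle 2 lay below every library of Vehicle 3 in 12 of them, an order held by 21.2% of all tested genes. The reverse held in Arntl, Npas2 and Nfil3, and in 7.03% of all tested genes. In 9 genes every library of Vehicle 1 lay between them as well: Per1, Per2, Cry2, Nr1d1, Nr1d2, Dbp, Tef, Ciart and Usp2. The share of all tested genes with Vehicle 1 in between was not counted, so the 9 have no background to be read against. Clock, Cry1 and Rora followed neither order. Rora, a nuclear receptor gene of the loop, stood at 9.22 TPM in Vehicle 1 against 22.3 and 19.5 TPM, lower in Vehicle 1 by -1.08 (limma adjusted p = 0.0102), which held throughout. The labels give no clock time of collection.

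Promoters of a few of these genes are shown because the loop acts through the E-box, the hexamer CACGTG, bound by Clock with the Arntl product. The 250 bases before the start come from RefSeq on build GRCr8, not the build of the deposited values, and are printed 5′ to 3′ on the gene's strand with CACGTG in capitals. CACGTG reads the same on both strands. Ciart lies at chr2:186112247-186112496 (minus strand), Nr1d1 at chr10:84229455-84229704 (minus strand), Dbp at chr1:105312006-105312255 (plus strand) and Aqp2, shown as the duct's own marker, at chr7:132590036-132590285 (plus strand).
Ciart: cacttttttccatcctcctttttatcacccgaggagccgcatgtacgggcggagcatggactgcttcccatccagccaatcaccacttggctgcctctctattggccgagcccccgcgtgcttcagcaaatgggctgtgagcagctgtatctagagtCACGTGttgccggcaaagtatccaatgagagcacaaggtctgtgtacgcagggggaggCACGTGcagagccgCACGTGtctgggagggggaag
Nr1d1: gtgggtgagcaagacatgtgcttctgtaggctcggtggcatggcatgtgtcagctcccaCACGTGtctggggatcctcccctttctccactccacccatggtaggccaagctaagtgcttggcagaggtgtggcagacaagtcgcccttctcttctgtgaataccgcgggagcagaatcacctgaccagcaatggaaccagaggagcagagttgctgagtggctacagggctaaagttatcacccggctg
Dbp: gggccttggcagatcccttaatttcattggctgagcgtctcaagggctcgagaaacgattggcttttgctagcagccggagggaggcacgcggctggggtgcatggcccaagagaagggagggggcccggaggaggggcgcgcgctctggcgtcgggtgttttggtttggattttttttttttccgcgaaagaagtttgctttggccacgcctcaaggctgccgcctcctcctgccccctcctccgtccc
Aqp2: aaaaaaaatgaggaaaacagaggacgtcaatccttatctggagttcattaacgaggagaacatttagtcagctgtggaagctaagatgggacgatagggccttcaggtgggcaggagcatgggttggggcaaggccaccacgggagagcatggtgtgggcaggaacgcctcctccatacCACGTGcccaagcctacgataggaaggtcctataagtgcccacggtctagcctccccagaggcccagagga

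Ciart, the widest of these in its ratio between Vehicle 3 and Vehicle 2, holds 3 matches, which begin 93, 35 and 21 bases before the start. Nr1d1 holds 1 at 191 bases in the entry shown and 0 in its other entry, and Dbp holds 0 in this window. Aqp2, which did not pass the test between samples, holds 1 at 71 bases. Of 18 entries for 16 clock genes 5 hold CACGTG, and 1872 of all 33469 entries do, or 5.59%. A match is a stretch of letters, not a shown binding site.

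Immediate early genes, which answer quickly to many stimuli, were high and uneven. Fos stood at 2105 ± 587 TPM, Junb at 1024 ± 269, Zfp36 at 717 ± 364, Egr1 at 412 ± 134 and Hspa8, a heat shock gene, at 789 ± 126 TPM (SD, n = 3). The list of 28 summed to 10036, 5255 and 8657 TPM, and Vehicle 2 was the lowest in 21 of 24 tested members, against 46% of all tested genes. By limma 1 of 24 differed, Nr4a2, and 10 had an unadjusted p under 0.05, against 25% of all tested genes. The Nr4a2 call was kept with 2 of 9 libraries left out in turn. Without library 1 of Vehicle 1 the test called 13 of 24, with 11 higher in Vehicle 1 and 13 lower in Vehicle 2. It called 2 without library 2 of Vehicle 2, 0 without any other single library, and 7 with Vehicle 1 left out. Within Vehicle 1, library 1 was the lowest of its 3 in 22 of 24 members and library 3 the highest in 21. The shares of all tested genes with these orders in the 3 libraries were not counted, so neither count has a background. Atf3 ran 82, 625 and 1177 TPM over those libraries, Socs3, a cytokine feedback gene, 8.61, 148 and 282 TPM, and Fos 1214, 2519 and 3405 TPM. Red cell markers ran 18.6, 1269 and 1955 TPM over the same libraries, while the connecting tubule list ran 11756, 3895 and 2290 TPM. Red cell markers also varied within the other samples, at 45.7, 212 and 240 TPM in Vehicle 2 and 1.62, 344 and 75.5 TPM in Vehicle 3. The part of the immediate early, red cell and connecting tubule genes in one another was not tested.

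**Figure D5:**
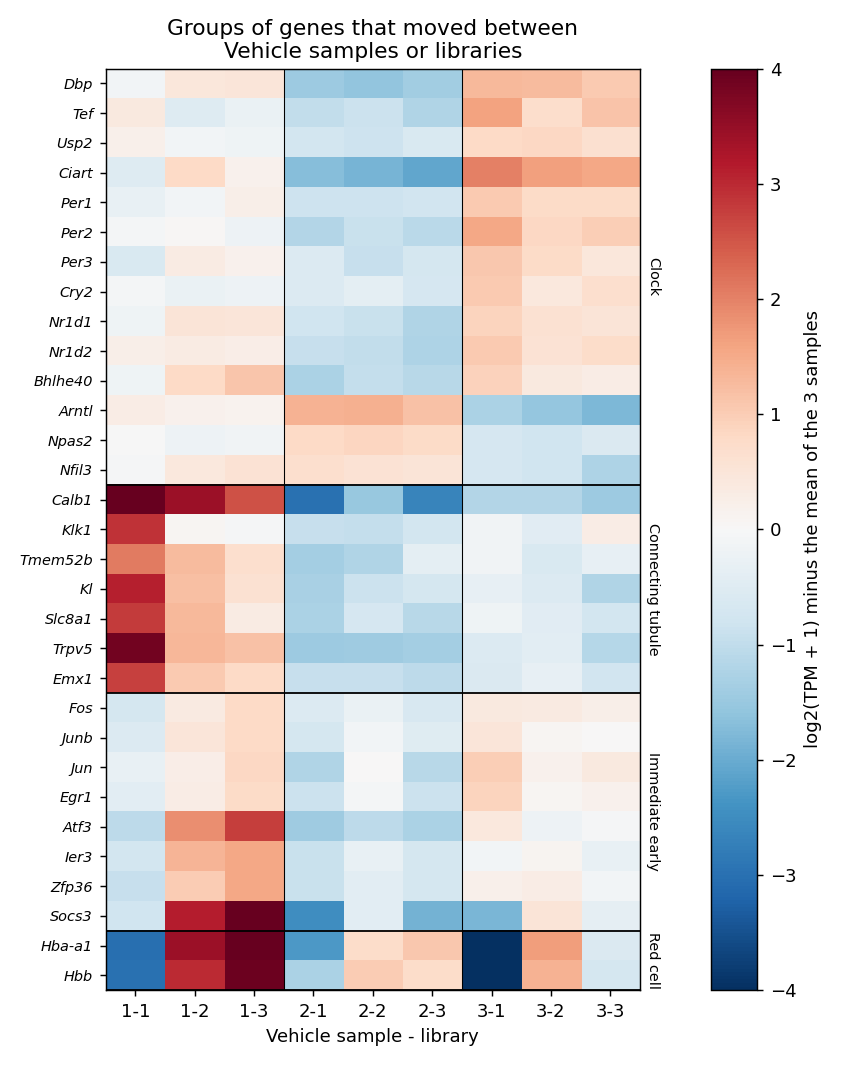
Colour gives log2(TPM + 1) minus the mean of the 3 samples, cut at 4 in each direction, for clock, connecting tubule, immediate early and red cell genes in the 9 libraries (sample, then library). The clock genes shown change by sample with Arntl, Npas2 and Nfil3 opposite to the rest. Connecting tubule genes are highest in Vehicle 1 and most of all in its library 1. Immediate early and red cell genes differ within Vehicle 1, and the summed red cell markers also varied within Vehicle 2 and Vehicle 3.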

How the data were processed

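The deposited table gives TPM for 32883 Ensembl genes, 1 column per library; columns with names in N were read as Vehicle. Per the submitters' processing notes, the authors used STAR 2.7.9a, RSEM 1.3.3 and build Rnor_6.0; strand use, annotation release and filters are not stated there. Positions in that build are not given. The table holds 0 columns of other samples, 9 columns of the lipopolysaccharide group that were not used, and 0 identical Vehicle libraries. Some 384 rows have no symbol. Where rows share a symbol, the one with the highest mean was used.

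Values were log2(TPM + 1), which understates differences of low genes. Tested were the 12458 genes that averaged 1 TPM or more over the 9 libraries, with 20425 not tested. In limma 3.58.1 (R 4.3.3) a moderated F test with a variance trend compared the 3 numbered samples, libraries as replicates. Each sample was also set against the mean of the other 2, Benjamini-Hochberg adjusted over all genes and the 3 contrasts together. Calls were at an adjusted p under 0.05, two-sided. The code was tested on simulated data.

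The samples described and the 34 lists (602 entries, 14 without a row, Gapdh and Pecam1 among them) were chosen with earlier results of these data known. Named were the 6 markers, the 25 most abundant nuclear-encoded genes, up to 6 top members and low defining members of each list, the 10 widest and 10 steadiest genes at 50 TPM or more, and per sample up to 8 rises and 8 falls with 10 TPM or more in the higher side; a U3 row is left without values because several rows share that symbol, and some genes under this naming rule are not reported here. Other genes, the gene pairs and the clock list were chosen after their values were seen. Alternatives were other pseudocounts, filters and scalings, no variance trend, the library number as a block, and leaving out each library or sample. Depth is unknown from TPM.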

Additional observations from a re-analysis of the deposited data

Results flagged for a closer look

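Among 24 measures checked over the 9 libraries, 3 had 1 library far from the others, with a gap to the nearest library larger than Dixon's 95% critical value allows. For independent values chance gives about 1 in 20 such measures. Here the 9 libraries come from 3 samples that differ, and some measures share genes, so that rate is only a rough guide. The distal convoluted and connecting tubule markers summed to 11756 TPM in library 1 of Vehicle 1, and the next library stood at 3895 TPM, a gap of 0.681 of the range. The proximal tubule markers summed to 364 TPM in library 3 of Vehicle 3, where Kap, a proximal tubule gene, stood at 160 TPM, and the next library stood at 152 TPM, a gap of 0.624. The fibroblast and mural markers summed to 25.1 TPM in library 1 of Vehicle 3, and the next library stood at 13 TPM, a gap of 0.616.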

How the results depend on the processing

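The 844 genes that differed between samples became 539 without a filter on low values, 546 with the replicate block (library number), 302 to 992 with single libraries left out, and 173 to 420 with single samples left out, where fewer samples enter. Calls of higher or lower in a sample, summed over the sample contrasts, came to 890 without the filter. With single libraries left out they came to 518 to 1686. These are counts of calls, not of genes, because a gene called in more than 1 contrast enters for each of them. Over all tested genes, same-numbered libraries did not deviate together (r from -0.218 to 0.137 over 9 pairs). Differently numbered libraries had r from -0.25 to 0.215. A source shared by number in only some genes was not tested. With mitochondrial genes left out the mean TPM of Aqp2 was 6533 and the mean TPM of Avpr2 was 758, and the 100 most abundant genes held 27.4%, which follows from the rescaling. The cause of the other moves was not tested. Of 2523 alternative values of 151 named differences 1940 kept their call, 583 lost it and 0 changed direction. Of 75 alternative values of marker sums 70 moved by less than 1 SD. Depth could not be weighed.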
